A study of Caenorhabditis elegans with 30 samples.

Results

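The 10 autosomal genes described here build and pair meiotic chromosomes of Caenorhabditis elegans, and their RNA was measured in L3 larvae: syp-1, syp-2, syp-3, syp-4, htp-1, htp-3, him-3, him-8, zim-1 and zim-2. They were listed by name with earlier results of these data known, and all 10 were found among the 46170 genes of the deposited table of RNA levels. The study compared chromatin and RNA of XX and XO hermaphrodites, grown on plates for 24 h from hatched L1 larvae. RNA was sequenced from 4 groups. These were 4 libraries of wild-type XX animals (strain N2 Bristol), 4 of XX animals carrying the allele dpy-21(e428) (strain EKM71), 5 of XO animals of strain TY1072 fed vector RNAi and 5 of the same XO strain labelled mys-1(RNAi). TY1072 carries her-1(e1520) on V and sdc-2(y74) on X, and both of its groups share those alleles, the single X and growth on RNAi plates. For H4K16ac, an acetylated form of histone H4, there were 3 ChIP libraries and 3 inputs of N2 and 3 of each of TY1072. The titles of these libraries name no RNAi. The RNA table holds 1 mean per group, in RPKM (reads per kilobase of transcript, scaled to the mapped reads of a library), and each peak list pools its replicates. No value below therefore has a replicate error, no difference between groups was tested, and the depth of single libraries is not in the tables used here.

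During meiotic prophase, homologous chromosomes find each other, align and are held together by the synaptonemal complex. In C. elegans, HORMA-domain proteins form the axis along each chromosome, and SYP proteins join the axes of both homologs as the central region of the complex. Pairing starts at 1 end of each chromosome, the pairing centre, which is bound by a zinc-finger protein: HIM-8 on X, ZIM-1 on II and III, ZIM-2 on V and ZIM-3 on I and IV. These genes act in germ cells, which are a minority of the cells of an L3 larva. In whole larvae, fewer germ cells and less RNA per germ cell cannot be told apart.

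The labels were first checked against the genes they name. The RNA of sdc-2 was 4.03 RPKM in wild-type XX, 4.96 in dpy-21(e428), 0.051 in XO vector RNAi and 0.071 in the XO libraries labelled mys-1(RNAi). The RNA of her-1 was 1.70, 9.66, 433.6 and 428.4 RPKM in the same order. That of dpy-21 was 30.1 RPKM in its own mutant and 29.6 in wild type. The RNA of mys-1 itself was 51.7 RPKM in the XO libraries labelled mys-1(RNAi) and 15.7 in XO vector RNAi, so that the RNA level goes against the label, and the former are called the mys-1-labelled libraries. These files measure RNA and not MYS-1 protein. By western blot, the study reported that this protein fell below detection in L3 larvae after mys-1 RNAi. All 20 genes of a germ cell list were above 1 RPKM in each group. Their summed level was 344.5 RPKM in wild type, 300.9 in dpy-21(e428), 374.6 in XO vector RNAi and 395.1 in the mys-1-labelled libraries. The sum rests on a few genes. For example, named after their values were seen, car-1 was at 106.2 RPKM and glh-4 at 1.49 in wild type. It is not a measure of germ cell number. Most sperm genes were nearly silent. Of 14 listed, 2 were above 1 RPKM in wild type, dpy-21(e428) and XO vector RNAi and 3 in the mys-1-labelled libraries. In wild type these were fog-3 (4.25 RPKM) and fog-1 (3.93 RPKM).

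The genes lie on 3 autosomes, 5 of them on IV, 3 on I and 2 on V, and none is on X. On V of WBcel235, syp-1 spans 16404274 to 16407701 and syp-2 spans 5536487 to 5537717, both on the plus strand. On I, syp-3 spans 8663045 to 8664445 on the minus strand, syp-4 spans 6847511 to 6849923 and htp-3 spans 4827072 to 4829791, both on the plus strand. On IV, htp-1 spans 5390189 to 5391557 on the minus strand and him-3 spans 6977508 to 6978765 on the plus strand. Also on the plus strand of IV, zim-1 (10547086 to 10555513), zim-2 (10555247 to 10558225), zim-3 (10558715 to 10561429) and him-8 (10561905 to 10563974) follow one another within 16889 bp. The gap is 489 bp between zim-2 and zim-3 and 475 bp between zim-3 and him-8, whereas the models of zim-1 and zim-2 overlap and share 223 exonic bp. These neighbours are not independent observations of the chromatin around them.

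Several of these genes have close copies, which matters for reads of 50 bp. The coding sequences of htp-1 and its paralog htp-2 are both 1056 nt long and are identical at 954 positions (90.3%). The 120-nt coding stretch in which they differ most, at positions 224 to 343 counted from the A of the start codon, is shown to make clear how few bases separate their reads. Capitals mark the 19 positions at which they differ (RefSeq genome of WBcel235, both genes on IV, in the direction of translation).
htp-1: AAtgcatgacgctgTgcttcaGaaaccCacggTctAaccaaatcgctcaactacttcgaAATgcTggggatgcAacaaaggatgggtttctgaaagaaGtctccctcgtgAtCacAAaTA
htp-2: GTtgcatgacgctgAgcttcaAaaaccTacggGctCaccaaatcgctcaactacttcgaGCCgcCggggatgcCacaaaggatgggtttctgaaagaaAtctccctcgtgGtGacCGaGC
Even so, exact copies of a whole read were rare. Of the 1033 windows of 50 bases within htp-1 exons, 13 (1.26%) also occurred in htp-2, and the longest run shared by the coding sequences was 62 nt. In zim-2, 291 of 2015 windows (14.4%) occurred elsewhere in the genome, 270 of them in zim-3, and in zim-1 75 of 1632 (4.596%) did. No exonic window of the other 7 genes, him-8 and him-3 included, was found a second time. The coding sequences of zim-1, zim-2 and zim-3 were between 69.7 and 77.1% identical, and that of him-8 was between 39.8 and 40.3% identical to them. The authors let a read align to up to 20 places and shared such reads among them, so the levels of zim-2, zim-1 and htp-1 carry a further uncertainty of unknown size.

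Apart from him-8, the genes were expressed at low levels in every group. The remaining 9 lay between 0.878 and 3.94 RPKM in wild type, between 0.851 and 4.16 in dpy-21(e428), between 1.45 and 5.50 in XO vector RNAi and between 1.58 and 7.11 in the mys-1-labelled libraries. In wild type, the 8 of them above 1 RPKM ranked between the 11.5th and the 22.8th percentile of the 14362 genes above that level. The median of all 10 was 2.64 RPKM in wild type, 2.32 in dpy-21(e428), 3.03 in XO vector RNAi and 3.65 in the mys-1-labelled libraries, compared with 12.99 to 13.4 for all genes above 1 RPKM. The mys-1-labelled libraries had the highest level of 6 of the 10 genes, as they did for 30.2% of the 15524 genes with a mean over the 4 groups above 1 RPKM. The dpy-21(e428) group had the lowest level of 6, against 31.1% of all these genes. For 5 of the 10 genes both XO means were above both XX means, which held for 44.3% of all genes, and for 0 of the 10 they were both below, against 20.9%. These means alone do not show which neighbouring levels differ beyond the spread between libraries, and the authors' own tests were not used here.

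**Figure D1:**
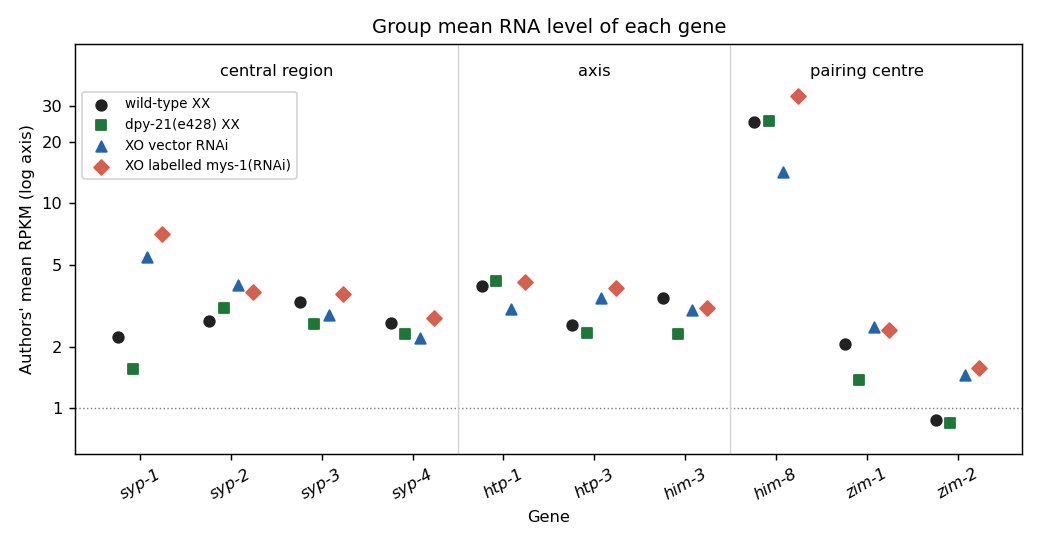
Authors' mean RPKM of each gene (log axis), 1 point for each of the 4 groups, with genes ordered by role and a dotted line at 1 RPKM. Points are means with no error. The level of him-8 was between 14.2 and 33.4 RPKM and all other points were between 0.851 and 7.11 RPKM.

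Among the central region genes, syp-1 differed most between groups. Its mean level was 2.23 RPKM in wild type, 1.56 in dpy-21(e428), 5.50 in XO vector RNAi and 7.11 in the mys-1-labelled libraries. Both XO means were thus above both XX means, with a ratio of 4.57 between the highest and the lowest. The annotated syp-1 transcript is 3053 nt long, of which 1467 nt are coding. Within it, 517 exonic bp (16.9%) are shared with F13A7.14, a gene on the same strand that begins upstream and that was picked for this overlap after its values were seen. The level of F13A7.14 was 3.80, 4.80, 4.17 and 5.60 RPKM in wild type, dpy-21(e428), XO vector RNAi and the mys-1-labelled libraries. Its ratio of XO vector RNAi to wild type was 1.10, against 2.47 for syp-1.

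The other SYP genes varied less. SYP-2 and SYP-3 are, like SYP-1, needed for the central region to assemble. The level of syp-2 was 2.67 RPKM in wild type, 3.10 in dpy-21(e428), 3.999 in XO vector RNAi and 3.70 in the mys-1-labelled libraries, again with both XO means above both XX means. For syp-3 the levels were 3.28, 2.59, 2.86 and 3.59 RPKM, and for syp-4 they were 2.62, 2.32, 2.21 and 2.76 RPKM in the same order. In both of these genes the XX and XO means overlapped, and the mys-1-labelled libraries had the highest mean. The 4 SYP genes thus did not share one order of groups.

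The axis genes encode HORMA-domain proteins. HTP-3 recruits the other axis proteins, HIM-3 is required for synapsis and HTP-1 coordinates synapsis with pairing. The level of htp-3 was 2.56 RPKM in wild type, 2.33 in dpy-21(e428), 3.45 in XO vector RNAi and 3.84 in the mys-1-labelled libraries, so both XO means were above both XX means. That of him-3 was 3.45, 2.31, 3.02 and 3.08 RPKM, with the highest mean in wild type and the lowest in dpy-21(e428). That of htp-1 was 3.94, 4.16, 3.05 and 4.11 RPKM, with XO vector RNAi apart from the other groups as the lowest. Its paralog htp-2, which is functionally redundant with it in part, was at 1.71, 1.69, 1.77 and 2.45 RPKM, below htp-1 in each group.

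Of the pairing-centre genes, him-8, whose product binds the X pairing centre, stood apart. Its level was 24.99 RPKM in wild type, 25.4 in dpy-21(e428), 14.2 in XO vector RNAi and 33.4 in the mys-1-labelled libraries. Both XX means were thus nearly equal and lay between both XO means, and the ratio of the XO means was 2.35. The neighbouring zim-3 was at 1.43, 1.62, 2.12 and 2.45 RPKM. The Ensembl annotation gives him-8 a transcript of 1254 nt and a second one of only 120 nt, the shortest of any of the 10 genes. RPKM is a level per length, and Cufflinks adds up the values of a gene's transcripts. Whether the short model was part of the WS235 annotation is not given in the sources used here, and its part in the level of him-8 was not tested.

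The level of zim-1, which serves II and III, was 2.06 RPKM in wild type, 1.37 in dpy-21(e428), 2.49 in XO vector RNAi and 2.40 in the mys-1-labelled libraries. That of zim-2, which serves V, was 0.878, 0.851, 1.45 and 1.58 RPKM, the lowest of the 10 genes in each of the 4 groups. Both XO means exceeded both XX means for zim-1 and zim-2. In contrast to him-8, the ZIM genes, zim-3 included, were near the lower end of expressed genes.

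The first comparison asked how loss of DPY-21, a subunit of the dosage compensation complex that represses X in XX animals, moved these autosomal genes. Ratios were taken of RPKM plus 1, for genes whose mean over both groups was above 1 RPKM. This understates differences of low genes. None of the 9 genes that passed, zim-2 being too low, differed by 1.5-fold, in either direction. Without a pseudocount, zim-1 was past the limit, with a ratio of RPKM of 0.666, and him-3 was next to it at 0.668. Among all 14791 genes that passed, 17.5% were at least 1.5-fold higher and 9.48% at least 1.5-fold lower. The median log2 ratio of the 9 genes was -0.13, against 0.040 for all genes. Of the 9, 6 were below 0 and 3 above. How many of all genes were below 0 was not counted. Among all genes that passed, the log2 ratio of htp-2 (-0.015) was above that of 43.96%, and that of mys-1 (0.011) above that of 46.97%. Many of all genes were thus below 0 as well, and the split of the 9 was not tested against them. The lowest log2 ratio of the 9 was that of him-3 (-0.43), followed by zim-1 (-0.37), syp-1 (-0.34) and syp-3 (-0.26). The highest was that of syp-2 (0.16). The nearest to the 1.5-fold limit was him-3, whose level plus 1 was 1.35-fold lower. Germ cell genes had a median of -0.25 over 20 genes. Of these, 2 were at least 1.5-fold lower, near the 9.48% of all genes, and both are named after their values were seen: glp-1 (-0.72), the Notch receptor of germline stem cells, and csr-1 (-0.62), an Argonaute. Of 8 epidermis genes that passed, 2 were at least 1.5-fold higher and 4 lower. The part of germ cells or of the epidermis in the values of the 9 genes was not tested.

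The second comparison set XO vector RNAi against wild-type XX, the 2 backgrounds of the study, and shares the wild-type mean with the first. They differ in karyotype, in the alleles of her-1 and sdc-2 and in growth on RNAi plates. By the study's methods, such plates carried another strain of food bacteria, and feeding for MYS-1 depletion began in the parents' L1 stage. These differences cannot be told apart. Of the 10 genes, 1 was at least 1.5-fold higher, syp-1 with a log2 ratio of 1.01 (2.01-fold), and 1 was at least 1.5-fold lower, him-8 with -0.77 (1.71-fold). Among all 15240 genes that passed, 25.2% were higher and 11.1% lower by this limit. The remaining 8 genes lay between -0.29 for htp-1 and 0.45 for syp-2, whose level plus 1 was 1.36-fold higher. The median of the 10 was 0.021, while that of all genes was 0.17, so that the median relative to all genes was -0.15. Relative to that shift, 3842 genes higher and 1699 lower became 3029 and 2288, and the calls of syp-1 and him-8 stayed as they were. Without a pseudocount, zim-2 was also past the limit, with a ratio of RPKM of 1.65.

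The lists that follow are read against the same comparison over all genes, with a median of 0.17, 25.2% higher and 11.1% lower. Germ cell genes had a median of 0.11, with 3 of 20 at least 1.5-fold higher and 1 lower, from mex-5 (1.32), which patterns the zygote, to csr-1 (-0.65). Of 10 late oocyte genes, 7 passed and 2 were higher, from oma-2 (1.09), an RNA-binding protein of maturing oocytes, to the eggshell gene cbd-1 (-0.28). Replication and cell division genes had a median of 0.41 with 5 of 18 higher, from cyb-3 (1.18) to bir-1 (-0.040), and their summed level was 461.5 RPKM in wild type and 635.5 in XO vector RNAi. Of the lists of somatic tissues, body wall muscle genes had a median of 0.72 with 6 of 10 higher, from unc-22 (1.15) to hlh-1 (-0.034). In the somatic gonad list, 5 of 8 genes passed and 3 were higher, from ceh-22 (1.25) to lim-7 (-0.043). Of 8 epidermis genes that passed, 2 were higher and 3 lower, from nhr-23 (1.24) to the cuticle collagen dpy-13 (-1.29), which was at 1729 RPKM in XO vector RNAi and 4243 in wild type. The part of any of these in the values of syp-1 and him-8 was not tested.

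The third comparison set the mys-1-labelled XO libraries against XO vector RNAi. It shares the XO vector RNAi mean with the second comparison, and its ratios are therefore not independent of those above. Only him-8 passed 1.5-fold, with a log2 ratio of 1.18 (2.26-fold higher). Of all 15785 genes, 5.28% were at least 1.5-fold higher and 3.6% at least 1.5-fold lower, and the ratio of him-8 was above that of 97.8% of them. The median of the 10 genes was 0.18, against 0.024 for all genes. How many of all genes were above 0 was not counted. The log2 ratio of her-1 (-0.017) was above that of 39.7% of them, and that of him-3 (0.021) above that of 49.2%. Of the 10, 8 were above 0. The next highest were htp-1 (0.34), syp-1 (0.32), syp-3 (0.25) and syp-4 (0.23), and the lowest were syp-2 (-0.088) and zim-1 (-0.036). Germ cell genes had a median of 0.080 and none of the 20 passed 1.5-fold, and the 8 late oocyte genes above the filter had a median of 0.30, also with none past 1.5-fold. The highest of each list are named after their values were seen. They were mex-5 (0.5848, 10.7 against 6.81 RPKM), just under the limit, and oma-1 (0.54, 4.54 against 2.81 RPKM). The pseudocount lowers such ratios.

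**Figure D2:**
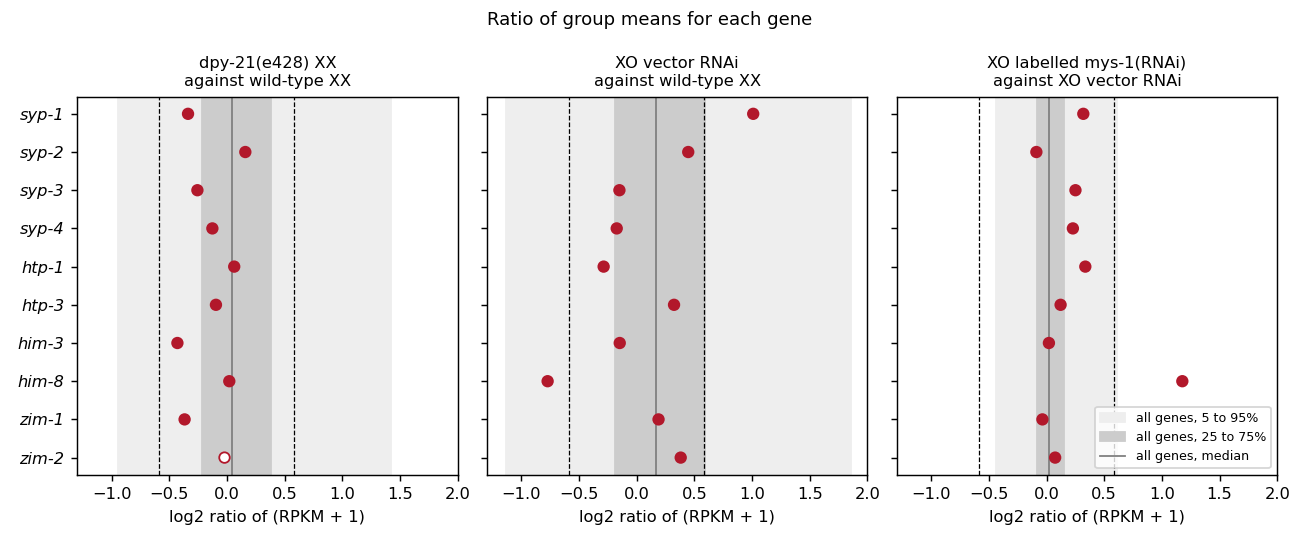
Log2 ratio of RPKM plus 1 for each gene in the 3 comparisons, with the median, the 25 to 75% range and the 5 to 95% range of all genes that passed the filter in grey and dashed lines at 1.5-fold; the open point is zim-2, which did not pass in dpy-21(e428). The genes past the dashed lines are syp-1 and him-8 in XO vector RNAi against wild type (1.01 and -0.77) and him-8 in the mys-1-labelled libraries (1.18).

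Further genes of the same process were read from lists. Of 16 other axis, synapsis and pairing genes, all had levels in the table, and 15 passed the filter in dpy-21(e428) against wild type. There, 2 were at least 1.5-fold lower, a share near the 9.48% of all genes, both named after their values were seen: rec-8 (-0.74), the meiotic cohesin kleisin, and zyg-12 (-0.73), a nuclear envelope protein that links pairing centres to the cytoskeleton. The median was -0.092. In XO vector RNAi against wild type, 1 of 15 was higher, plk-2 (0.86), a Polo-like kinase recruited to pairing centres, none was lower, and chk-2 (-0.35), the kinase that starts pairing and synapsis, was the lowest. The median of 0.18 was close to the 0.17 of all genes, of which 25.2% were higher and 11.1% lower. In the mys-1-labelled libraries, 0 of 16 passed 1.5-fold, against 5.28% of all genes higher and 3.6% lower, and the median was 0.11.

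The further central region genes syp-5 and syp-6, named after their values were seen, were at 1.601 and 2.24 RPKM in wild type. In XO vector RNAi they were at 2.30 and 3.08 RPKM, with log2 ratios of 0.34 and 0.33. Of 25 meiotic recombination genes in the table, 24 passed the filter in dpy-21(e428) against wild type, with a median of 0.0043. None of them passed 1.5-fold, against 17.5% of all genes higher and 9.48% lower. In XO vector RNAi against wild type, him-5 alone was past the limit, at 34.3 RPKM against 7.56 (log2 ratio 2.05), and brc-1 had the lowest ratio (-0.066). Of all genes, 25.2% were higher and 11.1% lower there. HIM-5 promotes double-strand breaks, mainly on X. The median of the 25 was 0.26. In the mys-1-labelled libraries it was 0.13 with none past 1.5-fold, against 5.28% of all genes higher and 3.6% lower.

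**Figure D3:**
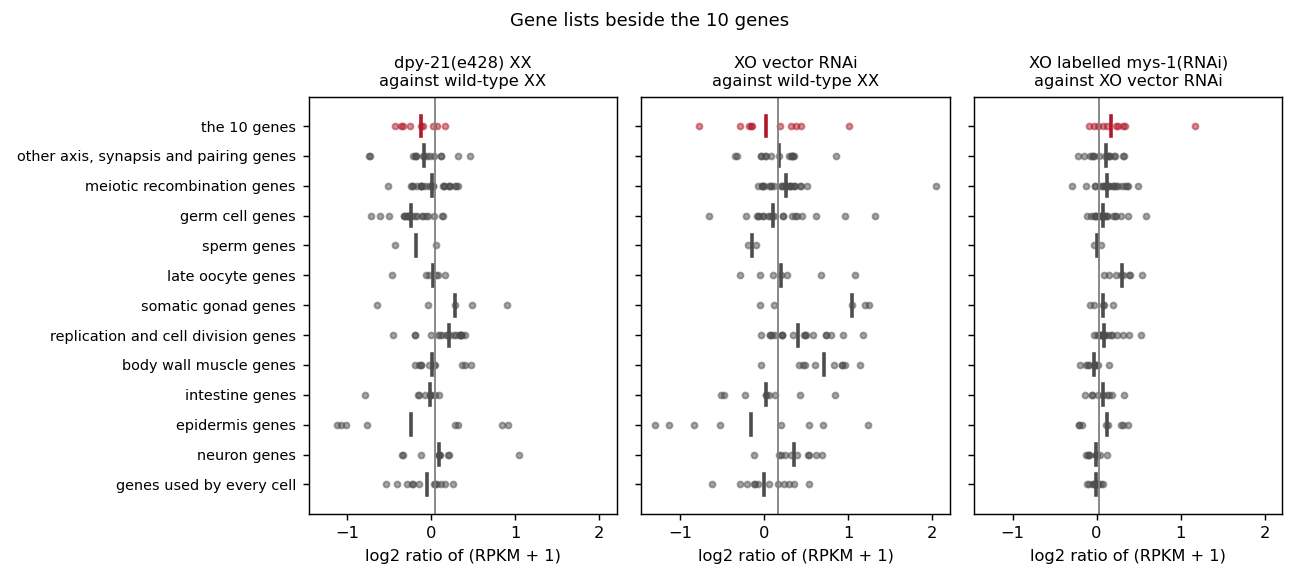
Log2 ratio of RPKM plus 1 for the genes of each list that passed the filter (points) and their median (bars) in the 3 comparisons, with the 10 genes in red and the median of all genes as a grey line. Medians of the 10 genes were -0.13, 0.021 and 0.18, and the germ cell list had -0.25, 0.11 and 0.080.

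Many other genes had a group profile close to the mean profile of these genes. For each of the 13179 other genes above 1 RPKM in all 4 groups, log2 of RPKM plus 1 was centred over the 4 means and set against the mean profile of the 10 genes. The root mean square distance was below 0.1 for 908 genes (6.89%). The closest were pqn-51, lec-6, pde-12, C02G6.1 and Y82E9BR.2, at distances from 0.014 to 0.021. Of the 10 genes themselves, only htp-3 (0.092) and syp-3 (0.094) were as near to their own mean profile, while him-8 (0.41) and syp-1 (0.54) were the farthest.

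H4K16ac is a mark of open chromatin that the list of genes does not refer to. In the XX list, all 10 genes had a peak within 500 bp of the annotated start, compared with 60.4% of the 14206 genes above 1 RPKM and 66.6% of the autosomal ones. The 10 were not filtered by level, and zim-2 was at 0.878 RPKM in wild type. In the XO list, 9 of the 10 had one, compared with 68.5% of 15349 genes and 69.9% of the autosomal ones. The peak lists carry no heights, so levels of acetylation could not be compared. The titles of the TY1072 ChIP libraries name no RNAi, whereas those of both XO RNA groups do. By these labels, the XO peaks belong to neither XO RNA group.

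In XX, 7 of the 10 genes lay whole within a peak, compared with 33.6% of all genes above 1 RPKM. The 7 include zim-2, which was below 1 RPKM in wild type. In XO, 5 of the 10 did, compared with 32.9%. Both shares include genes on X, where none of the 10 lies, and genes were not matched for length. In XX, a single peak of 13491 bp (chrIV:10554422-10567912) covered zim-2, zim-3 and him-8 entirely, and a peak of 50802 bp covered syp-4. In XO, the corresponding region of IV held a peak of 9925 bp (chrIV:10557111-10567035), which covered all of him-8 and zim-3 but, together with a smaller peak of 919 bp, only 43.1% of zim-2. For htp-1, htp-3, him-3, him-8 and syp-2, peaks covered the gene completely in both backgrounds. At him-8, the window around the start was also covered completely in both backgrounds.

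The gene without a start peak in XO was zim-1. In XX, a peak of 732 bp (chrIV:10546375-10547106) ran from 711 bp upstream to 20 bp downstream of its start, whereas the nearest XO peak near the start began 2061 bp downstream. Among 11343 autosomal genes above 1 RPKM in both backgrounds, 393 (3.46%) had a start peak in XX and not in XO, and 961 had the reverse. The mean RNA of zim-1 was 2.06 RPKM in the wild type and 2.49 with XO vector RNAi. At syp-1, the XX peak reached 1156 bp into the gene and the XO peak 131 bp, so that peaks covered 33.8% of the gene in XX and 3.85% in XO. The RNA of syp-1 was at 2.23 RPKM in the wild type and 5.50 with XO vector RNAi.

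**Figure D4:**
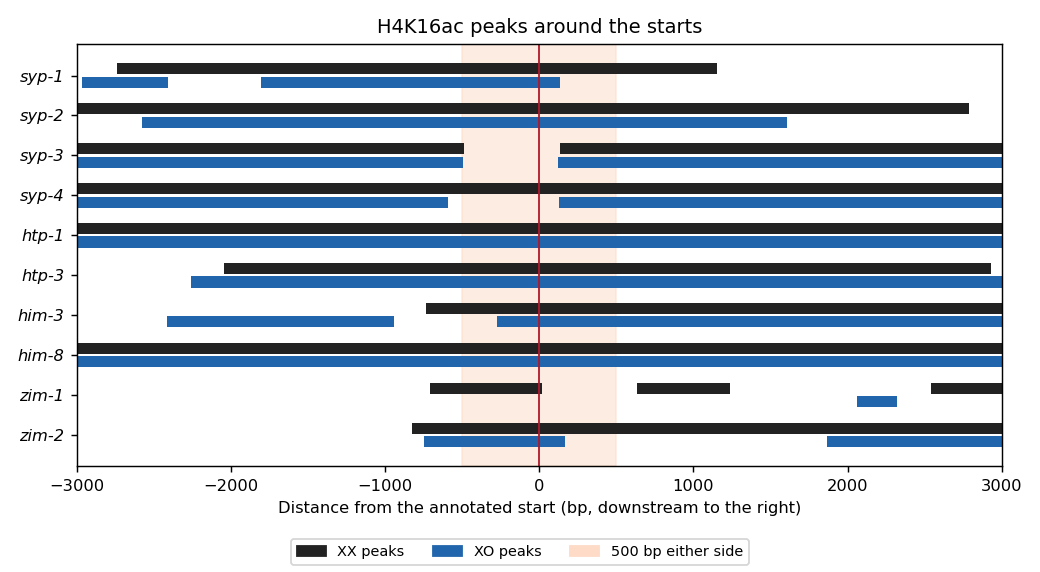
H4K16ac peaks in XX (black) and XO (blue) by distance in bp from each gene's annotated start (red line), cut at 3000 bp on either side, with the 500 bp on either side shaded. In XO, the shaded window of zim-1 holds no peak and the syp-1 peak ends 131 bp downstream of the start, compared with 1156 bp in XX.

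The 250 bases upstream of the starts are printed for syp-1 and him-8, the genes whose RNA passed 1.5-fold. They are from the RefSeq genome of WBcel235, 5′ to 3′ on the plus strand, at chrV:16404024-16404273 and chrIV:10561655-10561904. Capitals mark runs of at least 5 A or 5 T (the motifs AAAAA and TTTTT, which cover each other on both strands). Such runs are a known feature of worm promoters, but whether these stretches are promoters was not tested. F13A7.14 begins upstream of syp-1 on the same strand, so its model may cover part of the syp-1 stretch.
syp-1: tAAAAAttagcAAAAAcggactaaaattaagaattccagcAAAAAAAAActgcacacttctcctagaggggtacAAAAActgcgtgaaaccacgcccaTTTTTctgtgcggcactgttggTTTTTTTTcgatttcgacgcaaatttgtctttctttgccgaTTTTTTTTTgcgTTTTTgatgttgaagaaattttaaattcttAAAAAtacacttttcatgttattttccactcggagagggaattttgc
him-8: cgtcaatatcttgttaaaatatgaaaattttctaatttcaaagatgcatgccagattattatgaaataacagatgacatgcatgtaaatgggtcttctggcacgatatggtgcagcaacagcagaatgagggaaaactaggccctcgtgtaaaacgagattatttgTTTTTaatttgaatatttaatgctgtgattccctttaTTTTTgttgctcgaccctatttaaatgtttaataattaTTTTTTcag
The syp-1 sequence held 9 such runs, a number that 5.33% of 19973 protein-coding genes reach and him-8 held 3 (71.0% of genes have as many). The median of the 10 genes was 3, against 4 for all protein-coding genes. The GC content was 34.4% upstream of syp-1 and 31.6% upstream of him-8, against a median of 33.2% over all protein-coding genes, and it was 57.6% at syp-3, above that of 99.9% of genes. The him-8 sequence ends in TTTCAG directly before the annotated start, as is usual where a leader sequence is spliced on to a worm mRNA. This held for 12.3% of all protein-coding genes and for no other of the 10.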

How the data were processed

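The members and gene lists were chosen with earlier results of these data known. RNA libraries were non-stranded, with 50-bp reads. The authors aligned them to WS235 with TopHat2 2.0.13 (up to 20 hits a read), computed RPKM with Cufflinks 2.2.1 and deposited 1 mean RPKM value per gene and group. Their table of log2 fold changes and adjusted p-values was not used. For ChIP, the authors aligned reads with Bowtie 1.1.1, pooled replicates and called broad peaks with MACS2 2.1.0; the deposited lists give positions without scores. Positions were taken from Ensembl release 115 on WBcel235, the assembly of WS235, for 45835 of 46170 genes.

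From these files, log2 ratios of RPKM plus a pseudocount of 1 were computed (Python 3.11.15, pandas 2.3.3) for genes with a mean of both groups above 1 RPKM, and a gene was called past 1.5-fold. The functions were tested on simulated data. Peaks were counted within 500 bp of a start at an overlap of at least 1 bp. Coding sequences were aligned with Biopython 1.88. Of the listed genes, 155 were matched by name and 7 by identifier, and 2 (rec-1 and opt-2) were not matched. Named genes were the 10 members, their copies, the strain and RNAi target genes, the extremes of each list described in XO vector RNAi against wild type and the 5 genes with the nearest profile; others are marked as chosen after their values were seen. Other upstream sequences are not reported here.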

Additional observations from a re-analysis of the deposited data

How the results depend on the processing

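A count was taken to have moved when it differed by more than 1.5 times from the reported one, and a median when it differed by more than 0.1 on the log2 scale, since no replicate spread was to be had. Of 49 alternatives for the counts and medians, 45 kept the value by these limits. Those kept include a change from 2 to 3 genes past 1.5-fold in XO vector RNAi against wild type without a pseudocount. For log2 ratios of single genes, with the limit used for medians, 97 alternatives kept the value and 23 moved. Centring on the median of all genes moved each of the 10 in XO vector RNAi against wild type. The median of XO vector RNAi against wild type reversed sign, from 0.021 to -0.15, when ratios were centred on the median of all genes, and it was 0.19 without htp-1. With a 2-fold limit, 1 gene (syp-1) was past it in that comparison in place of 2. Without a pseudocount, 1 gene (zim-1) was past 1.5-fold, and lower, in dpy-21(e428) against wild type in place of 0. Centring moved the share of higher among all calls of XO vector RNAi against wild type from 69.3 to 57.0%. The counts of start peaks ranged from 9 to 10 in XX and from 8 to 10 in XO. Leaving out single replicates could not be run, since each group is given as 1 mean. No paired analysis was possible because the columns carry no replicate numbers.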
